A study of Mus musculus with 13 samples.

Results

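The genes described here encode the pore-forming alpha-1 subunits of voltage-gated calcium channels. They were chosen by name as 8 rows, Cacna1a, Cacna1b, Cacna1c, Cacna1d, Cacna1e, Cacna1g, Cacna1h and Cacna1i, out of 25025 genes in each table. The family was selected because Cacna1e was among the largest falls in mutants at 15 months, so the 15-month values of all 8 genes are given as a description and the 5-month comparison is the one tested. RNA was sequenced from the hippocampus of 13 C57BL/6 mice, either wild type or homozygous for the gene-trap allele Tmem184bGt(IST10294F4), a constitutive insertion that is carried in every cell. At 5 months there were 4 wild types (1 female and 3 male) and 3 mutants (1 female and 2 male). At 15 months there were 3 wild types (all 3 female, since 1 male was left out for poor quality) and 3 mutants (1 female and 2 male), so genotype and sex are partly confounded at that age. Each library was 1 mouse, and no mouse was measured at both ages. Values are normalized counts, set by the authors separately for each age, so wild types of 5 and 15 months were not tested against each other.

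Each alpha-1 subunit is a single long protein of linked repeats that fold around a calcium-selective pore and open when the membrane depolarises. Cacna1a (P/Q-type) and Cacna1b (N-type) channels trigger transmitter release at nerve terminals, Cacna1c and Cacna1d are L-type channels that couple activity to signalling in cell bodies and dendrites, and Cacna1e is the R-type channel of dendrites, spines and terminals. Cacna1g, Cacna1h and Cacna1i are the low-voltage-activated T-type channels, which open near resting potential and shape burst firing. Auxiliary alpha2delta and beta subunits bring the high-voltage-activated channels to the membrane.

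The split between the classes can be read in the coding sequence of the last of the pore repeats, which is shown because the results are ordered by it. In the windows of 30 bases, printed 5′ to 3′ on the coding strand from the longest coding transcript in the GENCODE annotation of GRCm38, capitals mark the codon of the acidic residue of the selectivity filter. It reads GAA or GAG (glutamate) in the 5 high-voltage-activated genes and GAC or GAT (aspartate) in the 3 T-type genes:

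Cacna1a (chr8:84611599-84611628, plus strand, exon 35 of 47): agcgccacaggaGAAgcgtggcacaacatc
Cacna1b (chr2:24635210-24635239, minus strand, exon 36 of 47): agtgccactgggGAGgcctggcatgagatc
Cacna1c (chr6:118614047-118614076, minus strand, exon 36 of 48): tgtgccaccggaGAGgcctggcaggacatc
Cacna1d (chr14:30075941-30075970, minus strand, exon 36 of 49): tgtgcaacagggGAAgcctggcaggagatc
Cacna1e (chr1:154425972-154426001, minus strand, exon 37 of 47): agtgccacggggGAGgcttggcaggagatt
Cacna1g (chr11:94416412-94416441, minus strand, exon 32 of 38): gtctccactggtGACaactggaatggtatt
Cacna1h (chr17:25377768-25377797, minus strand, exon 31 of 35): gtgtccactgggGACaactggaatgggatc
Cacna1i (chr15:80388485-80388514, plus strand, exon 31 of 37): gtctccacaggcGATaactggaatgggatt

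In this window Cacna1e shared 26 of 30 bases with Cacna1b and 16 of 30 with Cacna1g. The longest stretch of exact identity between any transcripts of 2 of these genes was 68 bases, between Cacna1g and Cacna1i, against a read length of 150 bases. Cacna1e shared at most 46 bases with another member, Cacna1b. Of all 8 genes, Cacna1e had the longest transcript, 14921 bases with a GC content of 48.3%. Its coding part was 6819 bases with a GC content of 53.0%, and 7662 bases with a GC content of 43.8% followed it. The longest transcripts of the other 7 ran from 7926 bases (Cacna1a) to 13162 bases (Cacna1c), with GC contents between 49.6% (Cacna1d) and 60.0% (Cacna1h). Cacna1i lies on chromosome 15, 884 kb from Tmem184b, and each of the other 7 genes lies on another chromosome.

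Tmem184b was checked first. At 5 months wild types had a mean of 2394 ± 64.9 (SD, n = 4) and mutants one of 39.8 ± 7.40 (SD, n = 3), and at 15 months the means were 2368 ± 38.4 (SD, n = 3) and 41.3 ± 14.7 (SD, n = 3), so every library matched its label. The summed normalized counts were between 28086279 and 32383546 per library. They remain after normalization and are not sequencing depth, which is unknown here, and no counting error is given. Markers of dentate granule cells, CA1, CA2 and CA3 pyramidal cells and interneurons were present in every library. Several libraries stood apart. The summed counts of 4 choroid plexus markers, led by Ttr, were 72137, 85670 and 161072 in wild types 1, 3 and 4 at 5 months and 27277 in mutant 3 at 15 months, against 368 to 2703 in the other 9 libraries. Of the 15-month mutants, 1 had a high count of Xist (7050, against 17.6 and 17.9), and all 3 wild types did (11204 to 12241). Because whole tissue was sequenced, fewer cells that carry a channel and less RNA of it per cell cannot be told apart.

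Levels were first compared between genes as normalized counts per kb of longest transcript. Cacna1h, a T-type gene, had the highest level in 5-month wild types, 680 ± 44.4 per kb (SD, n = 4), and made up 30.5% of the summed level of the 8 genes. Cacna1a followed with 508 ± 26.8, then Cacna1i with 302 ± 35.2, Cacna1g with 215 ± 14.7, Cacna1b with 189 ± 11.5 and Cacna1c with 164 ± 7.86. None of these neighbours overlapped between libraries. The lowest were Cacna1d with 98.7 ± 6.99 per kb and Cacna1e with 76.4 ± 29.8, whose ranges did overlap. In 15-month wild types the mean level per kb of Cacna1e was 301 ± 17.6 (SD, n = 3), 4th in the order, and its range overlapped those of both its neighbours, Cacna1i at 310 ± 10.02 and Cacna1b at 276 ± 16.4. In mutants Cacna1e was 7th at both ages, at 118 ± 51.1 per kb (SD, n = 3) at 5 months and 117 ± 41.3 (SD, n = 3) at 15 months, and overlapped Cacna1d. Cacna1h, Cacna1a and Cacna1i held the top of the order, by their means, in all 4 groups, and Cacna1h and Cacna1a overlapped in 15-month wild types. Cacna1f and Cacna1s, the alpha-1 genes known from retina and skeletal muscle, reached at most 41.4 normalized counts together in any library.

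**Figure D1:**
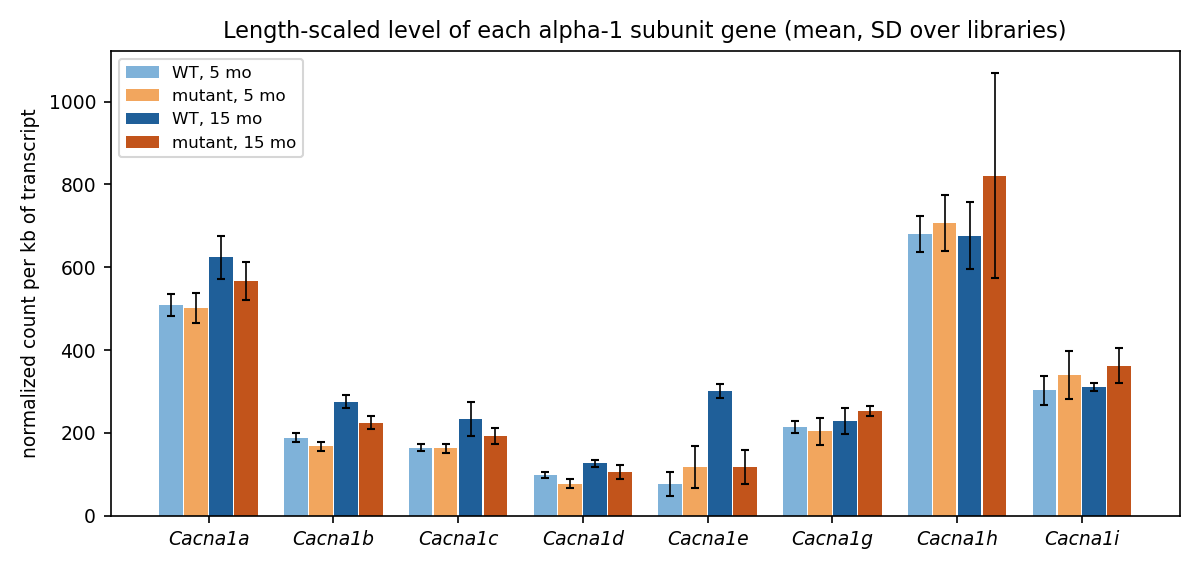
Normalized count per kb of the longest transcript (y axis, linear from 0) for each alpha-1 subunit gene (x axis) in the 4 groups. Bars are means over 3 or 4 libraries and whiskers are the SD. Cacna1h and Cacna1a are highest in every group, and Cacna1e has a mean of 301 in 15-month wild types against 76.4 to 118 in the other groups.

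The T-type genes made up more of the summed level per kb in 15-month mutants than in wild types of that age. Their share was 44.1%, 43.0% and 44.1% in the 3 wild types and 52.7%, 49.2% and 60.3% in the 3 mutants. At 5 months it was 51.2% to 57.9% in the 4 wild types and 51.1% to 58.8% in the 3 mutants, which overlapped. This share contains Cacna1e in its denominator and so is also a description.

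The question of the 5-month comparison was whether the alpha-1 genes already differed between genotypes in younger mice. Of the 8 members, all of which passed the filter of a mean normalized count of 10, 0 had an adjusted p under 0.05 in limma, against 2.27% of the 15563 genes tested. Of the 8, 1 member, and 3183 of all genes, had an unadjusted p under 0.05. The members' median log2 difference was -0.014, and that of all genes was 0.00025.

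Among the terminal channels, Cacna1a had values of 4024, 4110, 3738 and 4240 normalized counts in the 4 wild types, with 4259, 3993 and 3677 in the 3 mutants. The ranges overlapped almost wholly, with a log2 difference (mutant minus wild type, on the log2(normalized count + 1) scale) of -0.02 and a 95% interval from -0.19 to 0.15 (limma, adjusted p = 0.921). Cacna1b had values of 1905, 1922, 1677 and 1845 in wild types, with 1510, 1741 and 1629 in mutants. Of the mutants, 1 lay above the lowest wild type, and the log2 difference was -0.18 with an interval from -0.36 to 0.01 (adjusted p = 0.259).

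Of the L-type pair, Cacna1c had values of 2242, 2128, 2029 and 2243 in wild types, with 2314, 2064 and 2072 in mutants. These overlapped, with a log2 difference of -0.01 and an interval from -0.18 to 0.16 (adjusted p = 0.972). Cacna1d had values of 954, 972, 863 and 1025 in wild types, with 648, 841 and 760 in mutants. Every mutant was below every wild type, which was so for 1 of the 8 members and for 9.23% of all genes. Its log2 difference was -0.35, SE 0.11, a mean 21.3% lower, and did not pass the test (adjusted p = 0.101). Without mutant 2 the difference was -0.44 and passed (adjusted p = 0.0482). With wild type 2, which lacked the high choroid plexus markers, as the only wild type, an alternative chosen after seeing the data, it was -0.38, a value given without a test because 1 library stood for the group. The summed counts of 6 interneuron markers were also apart at this age, 23257 to 27307 in wild types against 18055 to 22017 in mutants. Most of that gap was Sst (means of 11630 and 7148), while Gad1 differed less (5732 and 5017), Slc32a1 was 4044 and 3965 and Pvalb was higher in mutants by its mean (1465 and 1586). The summed counts of 4 CA1 pyramidal markers were 20839 to 22113 against 23348 to 30821. Their part in the Cacna1d values was not tested.

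Cacna1e, the R-type gene, had values of 1621, 976, 606 and 1356 normalized counts in 5-month wild types, with 889, 2325 and 2055 in mutants. Mutants 2 and 3 were above all wild types, mutant 1 was below 3 of them, and the wild types themselves differed 2.68-fold. The log2 difference was 0.60, SE 0.36, with an interval from -0.18 to 1.38 (adjusted p = 0.375), the widest interval of the 8. It rested on single libraries, being 0.33 without wild type 3 and 1.03 without mutant 1. Within each 5-month group its coefficient of variation was 38.9% and 43.5%, against 4.77% to 11.65% and 6.61% to 17.2% for the other 7 genes. Each 5-month group held 1 female, and the labels do not give sex by library. The summed counts of Xist and Y-linked genes were highest in wild type 1 (5144, against 1522 to 1771) and mutant 1 (2571, against 1544 and 1940). This sum mixes Xist with genes of the Y chromosome, so it is not by itself a measure of sex. Xist alone had means of 1287 in wild types and 864 in mutants. Wild type 1 had the most Cacna1e of its group, and mutant 1 the least of its own. The part of sex in the 5-month Cacna1e values was not tested.

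Cacna1g had values of 1756, 1822, 1955 and 1661 in wild types, with 1972, 1432 and 1719 in mutants (log2 difference -0.08, interval -0.32 to 0.15, adjusted p = 0.712). Cacna1h had values of 5166, 5481, 5721 and 6028 in wild types, with 6458, 5565 and 5418 in mutants (log2 difference 0.05, interval -0.13 to 0.24, adjusted p = 0.777). Cacna1i, the T-type gene near the trapped locus, had values of 2915, 2904, 3421 and 2588 in wild types, with 3926, 2795 and 3236 in mutants (log2 difference 0.16, interval -0.11 to 0.43, adjusted p = 0.498). The genotypes overlapped for all 3 T-type genes.

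**Figure D2:**
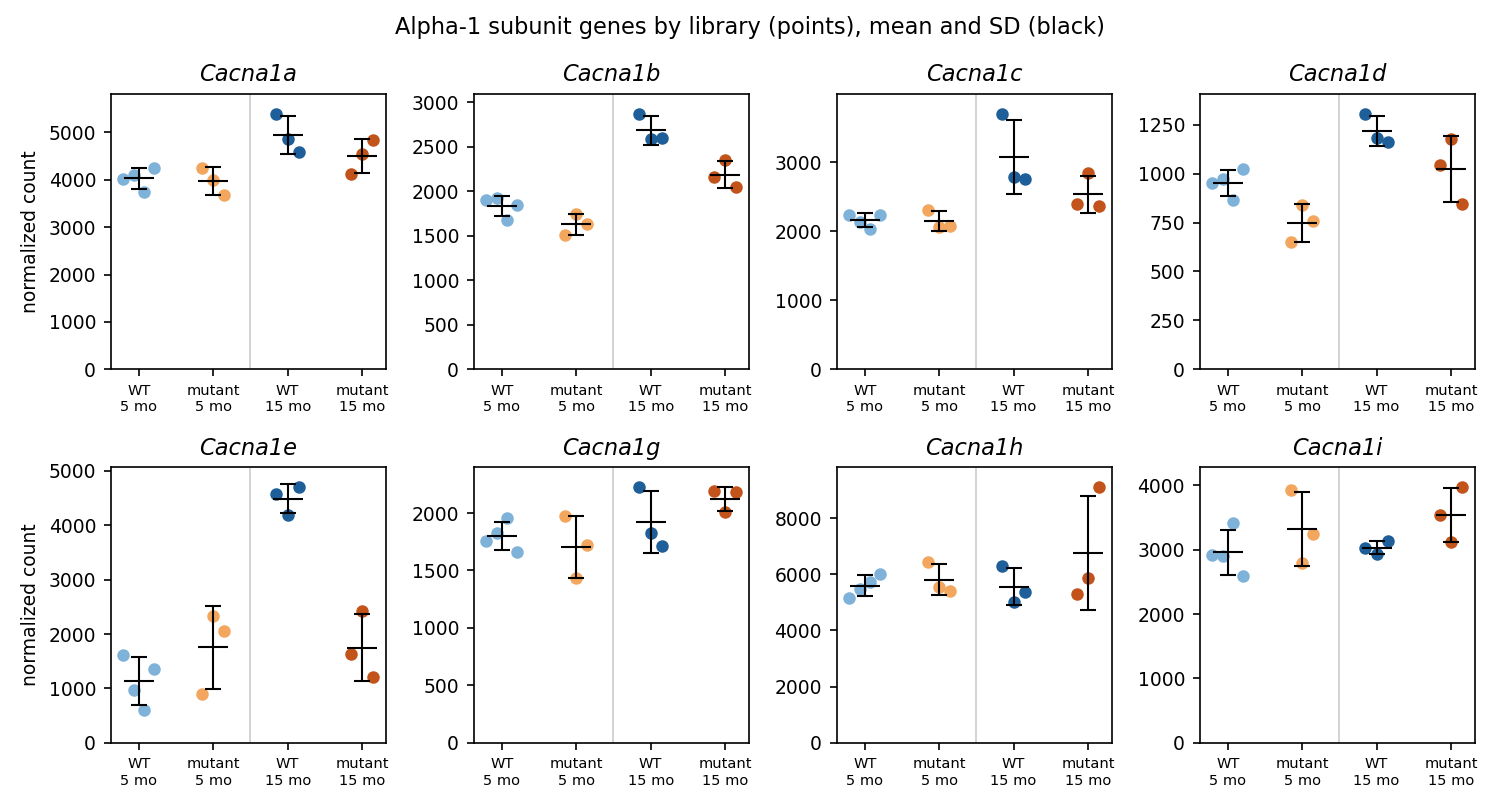
Normalized count (y axis, linear from 0) of each alpha-1 subunit gene in every library, by genotype and age (x axis). Points are libraries, and black marks are the mean and SD. In 15-month mice the Cacna1e points of wild types (4197 to 4697) and mutants (1201 to 2416) do not overlap, while at 5 months they do. The 2 ages were normalized separately.

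At 15 months the Cacna1e values were 4583, 4197 and 4697 in the 3 wild types and 1630, 2416 and 1201 in the 3 mutants. Every mutant was far below every wild type, and the mutant mean was 61.1% lower. The log2 difference was -1.42, SE 0.20, 48th from the lowest of 15541 genes. These are the values that chose the family and carry no test. The single mutant with a high Xist count had 1630. The part of sex in the difference was not tested. The sum of 4 astrocyte genes was lower in the same mutants, at 66399 to 70152 in wild types against 53511 to 61007, most of it Slc1a2 (means of 60227 and 48590), while Aqp4, Gja1 and Aldh1l1 overlapped and Aldh1l1 had the higher mean in mutants (2356, against 2144). After the GC and length correction described later the 4 astrocyte genes had log2 differences between -0.03 and 0.06. The sum of 4 microglial genes overlapped (6360 to 7059 against 6002 to 7197). The CA1 pyramidal sum was higher in the mutants (23337 to 27138, against 21141 to 22588). Most of that gap was Fibcd1 (means of 6938 in wild types and 9417 in mutants) and Pou3f1 (3472 and 4394). Mpped1 overlapped (6952 and 7294), and Wfs1 had the lower mean in mutants (4708 and 4353). After the correction the CA1 genes had log2 differences between -0.29 (Wfs1) and 0.23 (Fibcd1). The part of cell makeup was not tested either. With each library left out in turn the log2 difference lay between -1.68 and -1.18.

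Of the 8 members, 1 (Cacna1e, lower) had an adjusted p under 0.05 in this contrast, beside 6.02% of all genes in either direction and 4.03% in the lower direction, and nothing is read from that count. In 2 members, Cacna1b and Cacna1e, all mutants were below all wild types, which was so for 17.7% of all genes.

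Cacna1b had values of 2868, 2590 and 2593 in 15-month wild types, with 2160, 2347 and 2049 in mutants, a log2 difference of -0.30, SE 0.08. Cacna1a had values of 5390, 4858 and 4586 in wild types, with 4119, 4535 and 4835 in mutants, which overlapped at a log2 difference of -0.14, SE 0.09. Both L-type genes overlapped as well. Cacna1c had values of 3701, 2786 and 2760 in wild types, with 2400, 2841 and 2365 in mutants (log2 difference -0.27, SE 0.12), and wild type 1 set much of that gap, since without it the difference was -0.13. Cacna1d had values of 1305, 1184 and 1162 in wild types, with 1044, 1179 and 844 in mutants (log2 difference -0.26, SE 0.12), and without mutant 3 the difference was -0.13.

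The 3 T-type genes had positive differences at 15 months, and all overlapped between genotypes. Cacna1g had values of 2223, 1823 and 1716 in wild types, with 2193, 2006 and 2179 in mutants (log2 difference 0.15, SE 0.10). Cacna1i had values of 3025, 2937 and 3133 in wild types, with 3540, 3124 and 3967 in mutants (log2 difference 0.22, SE 0.09). Cacna1h had values of 6305, 5024 and 5360 in wild types, with 5316, 5868 and 9097 in mutants. Its log2 difference of 0.25, SE 0.18, rested on mutant 3, the library with choroid plexus markers and the highest summed counts of 13 immediate early genes (37872, against 19829 and 23162 in the other mutants), and was 0.01 without it.

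The effect of transcript composition was then examined, because the differences at 15 months ran with it across all genes. Over 15313 genes, Spearman's rho of the log2 difference was 0.49 with GC content and -0.42 with transcript length at 15 months, against 0.14 and 0.10 over 15345 genes at 5 months. Genes are not independent replicates, so no p is given. Long transcripts of low GC content, such as that of Cacna1e, thus tended to have lower values in 15-month mutants. Each library was therefore corrected by a loess curve on GC content and log2 length, and the fits were repeated.

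After the correction the 15-month log2 difference of Cacna1e was -1.16, SE 0.21, and it was 78th from the lowest. Its corrected log2 values were 12.03, 11.93 and 12.05 for wild types, against 10.88, 11.35 and 10.30 for mutants, which did not overlap.

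The other members moved less in log2 units, though some lost a larger part of their difference, as Cacna1c did (-0.27 to -0.09). Corrected differences at 15 months were -0.14 for Cacna1a, -0.24 for Cacna1b, -0.09 for Cacna1c, -0.12 for Cacna1d, 0.14 for Cacna1g, 0.18 for Cacna1h and 0.10 for Cacna1i. Of the 8 members, 0 had an adjusted p under 0.05 after correction, beside 0.242% of 15313 genes, and the same pair, Cacna1b and Cacna1e, did not overlap, beside 8.84% of all genes. From these counts nothing is read either.

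At 5 months the same correction moved the N-type gene and 1 L-type gene past the test. Cacna1d had values of 9.88, 9.96, 9.87 and 10.03 in wild types, with 9.46, 9.61 and 9.42 in mutants on the corrected log2 scale, a log2 difference of -0.44, SE 0.08 (limma, adjusted p = 0.0175). Cacna1b had values of 10.90, 10.95, 10.81 and 10.89 in wild types, with 10.59, 10.67 and 10.55 in mutants, a log2 difference of -0.29, SE 0.07 (adjusted p = 0.0330). Both were lower in 3 of 3 mutants than in any wild type, and these 2 were the members called, beside 2.35% of 15345 genes that were called lower. In either direction the correction raised the share of all genes called from 2.27% to 5.72%, so more calls were not particular to the members. Of all genes, 8.49% had every mutant below every wild type after correction. A linear correction called Cacna1d alone, and the loess correction with the replicate number as a block called 0 members, at log2 differences of similar size (-0.41 for Cacna1d, adjusted p = 0.0812, and -0.29 for Cacna1b, adjusted p = 0.142). The other 6 members did not pass the test after correction, with Cacna1e at 0.48, SE 0.29 (adjusted p = 0.340), and Cacna1c at -0.13, SE 0.10 (adjusted p = 0.452).

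**Figure D3:**
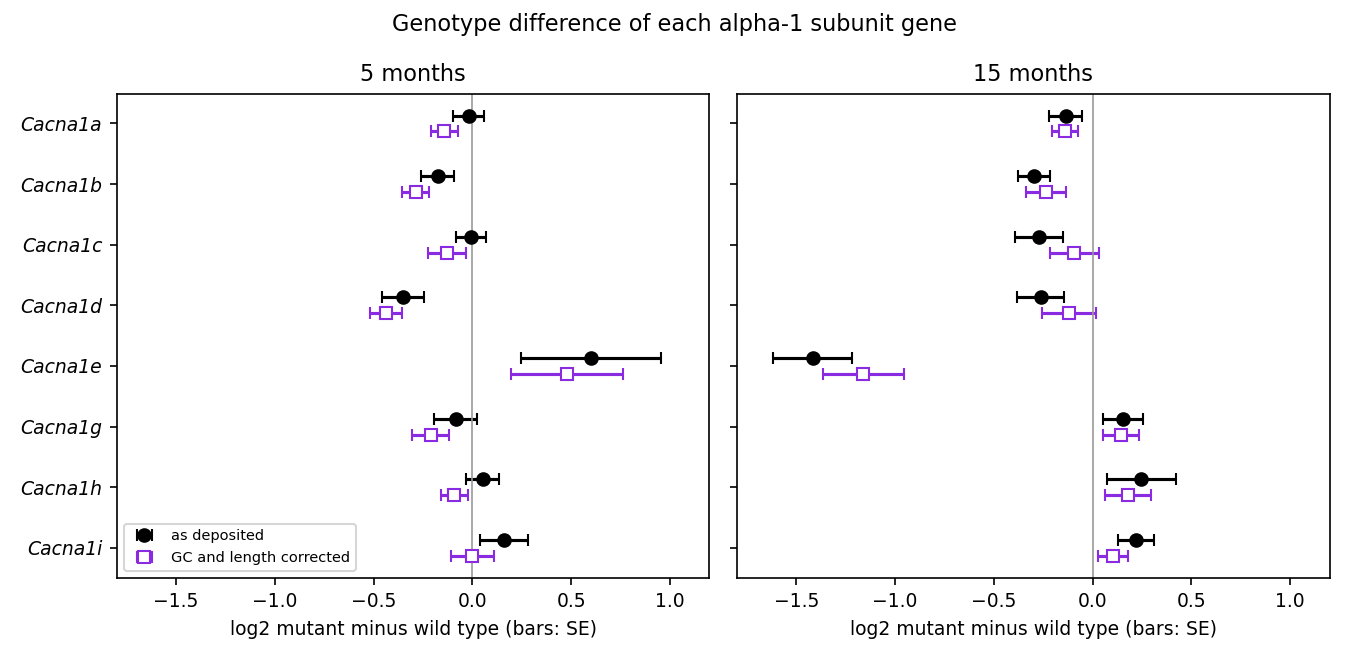
Log2 difference, mutant minus wild type (x axis), of each alpha-1 subunit gene (y axis) at 5 months (left) and 15 months (right). Filled circles are the deposited values, open squares are the values after the GC and length correction, and bars are the SE. Cacna1e stays at -1.16 after correction at 15 months, and at 5 months Cacna1b and Cacna1d move away from 0.

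The effects at the 2 ages were set side by side in 1 fit of all 13 libraries, as values without a test because the 15-month contrast chose the family. The difference of the genotype effects, 15 months minus 5 months, was -2.02, SE 0.50, for Cacna1e, and -1.65, SE 0.42, after correction. For the other 7 genes it lay between -0.27 (Cacna1c) and 0.24 (Cacna1g), and between -0.00075 (Cacna1a) and 0.35 (Cacna1g) after correction. Cacna1e was thus above wild type in 2 of 3 mutants at 5 months and below it in 3 of 3 at 15 months.

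The genes whose values ran most closely with those of Cacna1e were then listed. Over the 13 libraries, with log2(normalized count + 1) centred within each age, the genes most like it among 15340 were Tnks (a poly-ADP-ribose polymerase, Pearson's r = 0.985), Hipk2 (a nuclear kinase, 0.981), Nr2c2 (a nuclear receptor, 0.981), Oip5os1 (a long noncoding RNA, 0.980) and Atrnl1 (0.980). After the correction for GC content and length the 5 most alike were Rapgef5 (0.979), Parm1 (0.976), Tnks (0.975), Hipk2 (0.972) and Lnpep (0.967). These values contain the genotype difference. With the values centred within each group of genotype and age instead, r as deposited was 0.985 for Tnks, 0.963 for Hipk2, 0.974 for Nr2c2, 0.978 for Oip5os1 and 0.966 for Atrnl1. These are descriptions over libraries that differ in genotype, sex and quality together, so they carry no p.

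Tnks shows the likeness at its plainest. It had values of 393, 254, 139 and 316 normalized counts in 5-month wild types, with 240, 614 and 473 in mutants, and 882, 909 and 956 in 15-month wild types against 425, 563 and 324 in mutants. In each group the library with the least Cacna1e was also the one with the least Tnks, apart from the 15-month wild types, which lay close together. Malat1, an abundant nuclear RNA, ran with Cacna1e too (r = 0.949, and 0.859 after correction, or 0.912 and 0.762 centred within group). It was 10021, 9333, 6827 and 8696 in 5-month wild types, 8873, 14685 and 15356 in 5-month mutants, 22951, 18285 and 20869 in 15-month wild types and 9801, 11760 and 8515 in 15-month mutants. Malat1 thus separated the genotypes at 15 months in the direction of Cacna1e, with a log2 difference of -1.05 (limma, adjusted p = 0.0246). After correction it was -0.74 (adjusted p = 0.0376, beside 0.242% of all genes called), still with every mutant below every wild type. At 5 months its difference was 0.55 (adjusted p = 0.127). After correction that was 0.54 (adjusted p = 0.0175, beside 5.72% of all genes called), with every mutant above every wild type. The part of Malat1, or that of nuclear RNA, in the Cacna1e difference was not tested. Neat1, another nuclear RNA, was also lower in mutants at 15 months, 2872 against 3872 (log2 difference -0.43, limma, adjusted p = 0.0390), with every mutant below every wild type. After correction its difference was -0.08 (adjusted p = 0.772), and the genotypes overlapped. Neat1 was lower in mutants at 5 months too, 2126 against 4266 (-0.99, adjusted p = 0.0225). After correction that difference was -1.14 (adjusted p = 0.0155). Its r with Cacna1e was -0.13, and -0.40 after correction. Meg3 had r of -0.15, and -0.38 after correction. Its log2 difference at 5 months was -0.54 (limma, adjusted p = 0.0518), and -0.66 after correction (adjusted p = 0.0306). At 15 months it was -0.16 (adjusted p = 0.554), and 0.07 after correction (adjusted p = 0.901).

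**Figure D4:**
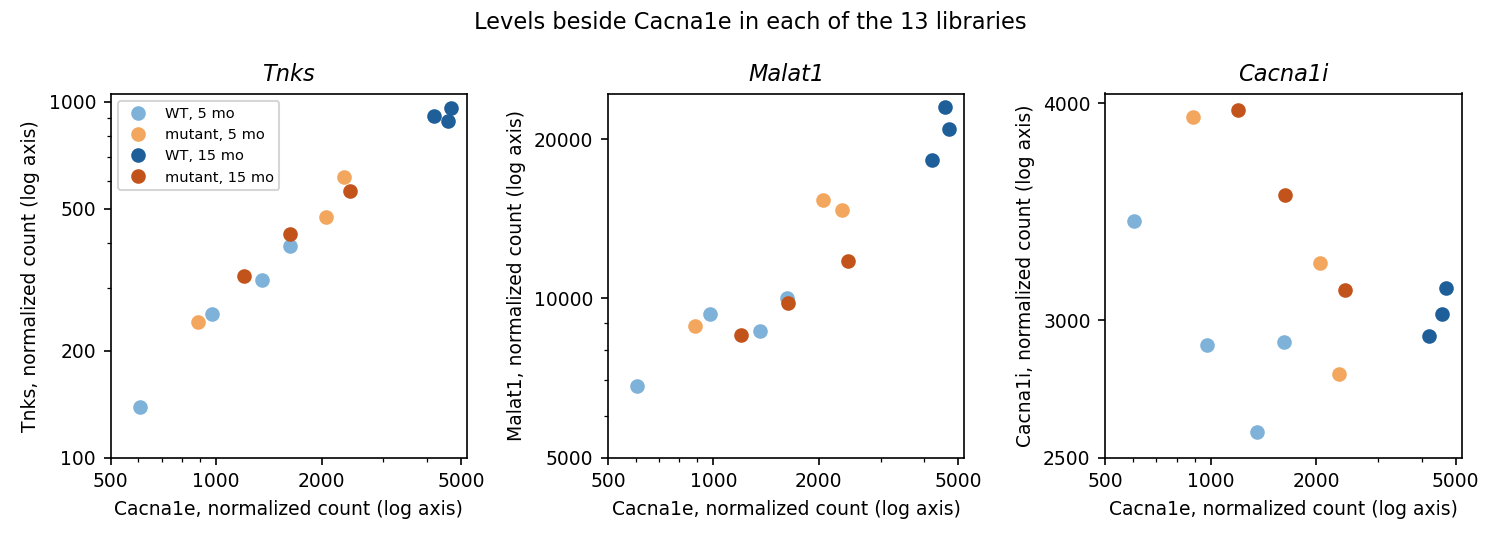
Normalized counts of Tnks, Malat1 and Cacna1i (y axes, log) against that of Cacna1e (x axes, log), 1 point per library, coloured by genotype and age. Tnks (r = 0.985) and Malat1 (r = 0.949) rise with Cacna1e, and Cacna1i (r = -0.68) is lower where Cacna1e is higher. Each r is centred within age and contains the genotype difference.

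Within the family, over the same 13 libraries centred within age, r with Cacna1e was 0.64 for Cacna1b, 0.51 for Cacna1c, 0.46 for Cacna1d and 0.24 for Cacna1a. For the T-type genes Cacna1g, Cacna1h and Cacna1i it was -0.71, -0.53 and -0.68. Values centred within age contain the genotype difference that chose Cacna1e. Centred within each group of genotype and age instead, r was 0.81 for Cacna1b, 0.19 for Cacna1c, 0.81 for Cacna1d and -0.10 for Cacna1a. The T-type genes then had r of -0.67, -0.47 and -0.88. With values centred within age, the closest pair was Cacna1b with Cacna1d (0.90), and the most opposed was Cacna1d with Cacna1i (-0.89). The pairs did not all follow channel class, since Cacna1a had r of 0.36 with the T-type gene Cacna1h and of 0.22 with the L-type gene Cacna1d. After correction, again centred within age, Cacna1c and Cacna1d had r of 0.016 and 0.16 with Cacna1e, while Cacna1g, Cacna1h and Cacna1i had r of -0.61 each. Corrected and centred within group, Cacna1c and Cacna1d had r of -0.05 and 0.58, and the T-type genes -0.43, -0.43 and -0.65.

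The other genes of calcium channel function were taken from lists of 68 genes in all, of which 66 passed the filter. At 5 months 0 of the 66 had an adjusted p under 0.05 in limma, beside 2.27% of all genes. At 15 months 11 did, 10 lower and 1 higher in mutants, beside 6.02% of all genes in either direction. After the GC and length correction 0 of the 66 passed at 15 months, beside 0.242% of 15313 genes, and 3 at 5 months, beside 5.72% of 15345 genes, so the 15-month calls rest on the uncorrected values. The count of 11 also rested on single libraries. It was 0 without any 1 of the 3 wild types or mutant 1, 18 without mutant 2 and 14 without mutant 3, and at 5 months it was 7 without mutant 1 and 4 without mutant 2. The genotype effect differed between ages in 4 of the 66 (Akap5, Itpr2, Atp2a2 and Kcnma1), beside 1.75% of 15340 genes. Sex, the astrocyte sum and Malat1 moved with genotype at 15 months in these libraries too, and their part in the 11 calls was not tested.

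Of the auxiliary subunits at 15 months, Cacna2d1, an alpha2delta subunit, fell from a mean of 3212 to 2484 normalized counts (log2 difference -0.38, SE 0.10, adjusted p = 0.0497) in 1 of 4 alpha2delta genes called. Of 4 beta subunits, Cacnb4 fell from 2407 to 1761 (-0.45, SE 0.11, adjusted p = 0.0483) and Cacnb3 rose from 10780 to 13203 (0.29, SE 0.06, adjusted p = 0.0390). The corrected differences of these genes were -0.05, -0.10 and 0.06. Of 7 gamma subunit genes, which include the AMPA receptor partners known as TARPs, 0 were called.

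Pclo, a scaffold of the presynaptic active zone where Cacna1a and Cacna1b channels cluster, fell from 4621 to 3303 (-0.50, SE 0.11, adjusted p = 0.0384, corrected -0.11), as 1 of 15 presynaptic partners. Akap5, which anchors kinase and phosphatase near L-type channels, fell from 1914 to 1309 (-0.57, SE 0.13, adjusted p = 0.0436, corrected -0.27), as 1 of 15 calcium signalling genes. Of 15 genes of calcium stores and extrusion 5 fell. They were the release channels Itpr1 (8498 to 5608, log2 difference -0.60, SE 0.08, adjusted p = 0.0246, corrected -0.45) and Ryr2 (5752 to 3770, -0.62, corrected -0.38), the exporters Atp2b1 (16283 to 12069, -0.44, corrected -0.12) and Slc8a1 (4844 to 3371, -0.52, corrected -0.04), and the store pump Atp2a2 (17059 to 13703, -0.32, corrected -0.12). Of 5 calcium-activated potassium channel genes, Kcnma1, the BK channel that Cacna1e and other calcium channels activate, fell from 1461 to 804 (-0.89, SE 0.16, adjusted p = 0.0303, corrected -0.60). In the 11 genes named, mutants and wild types did not overlap before correction. Of all genes, 17.7% had every mutant below every wild type. The 11 were called in this same contrast, so nothing is read from their separation. After correction Akap5, Itpr1, Atp2a2, Atp2b1 and Kcnma1 still did not overlap, and the others did.

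**Figure D5:**
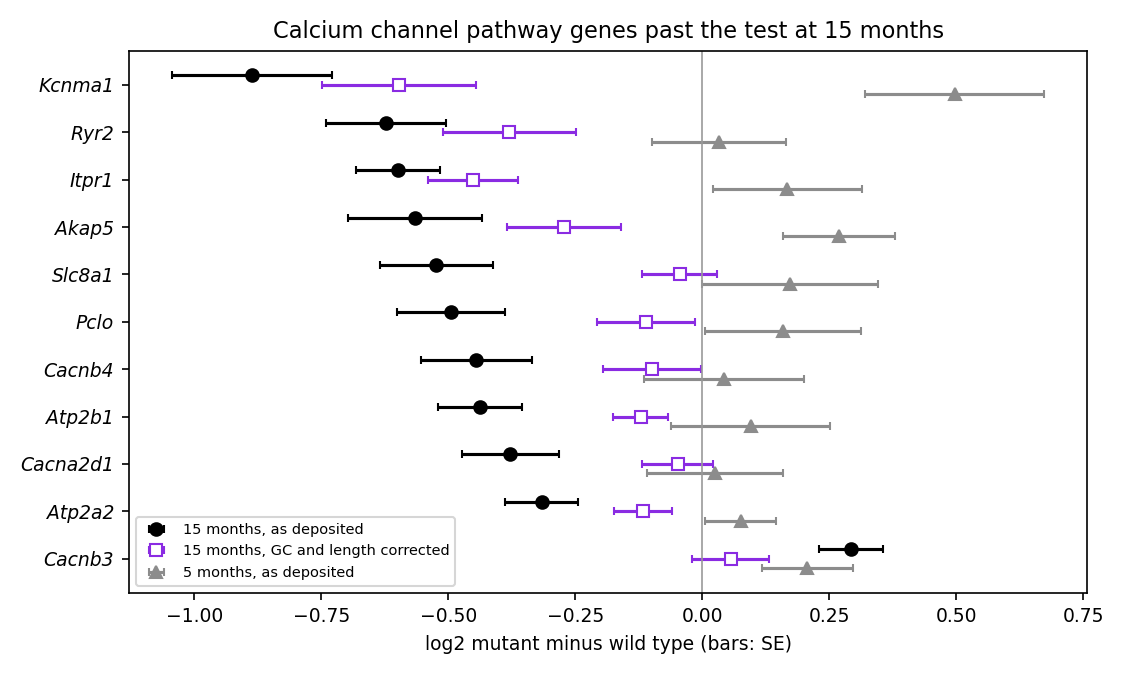
Log2 difference, mutant minus wild type (x axis), of the 11 calcium channel pathway genes past the test at 15 months (y axis). Circles are 15-month deposited values, squares the same after GC and length correction, triangles the 5-month values, and bars the SE. Kcnma1 goes from -0.89 to -0.60 with the correction and was 0.50 at 5 months.

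The genes past the test at 5 months after the correction were Calm3 (calmodulin, corrected log2 difference 0.41, SE 0.08, adjusted p = 0.0221), Ryr1 (-0.49, SE 0.11, adjusted p = 0.0254) and Kcnma1 (0.41, SE 0.10, adjusted p = 0.0397). Before it they had adjusted p = 0.0514, adjusted p = 0.137 and adjusted p = 0.144, and with the replicate number as a block beside the correction 0 of the 66 passed.

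The sodium channel alpha subunits, which have the same fold of linked repeats, were set beside the calcium channels. Of 10 genes, 7 were tested, and Scn1a, Scn2a and Scn8a fell at 15 months (log2 differences of -0.49, -0.43 and -0.27, adjusted p = 0.0379, adjusted p = 0.0376 and adjusted p = 0.0490), beside 4.03% of all genes called lower. After correction they were -0.16, -0.14 and -0.12, and 0 of the 7 passed, beside 0.242% of all genes. At 5 months 0 of the 7 passed, beside 2.27%. The list's median at 15 months was -0.43, that of the 8 calcium channel genes -0.20 and that of all genes 0.016. Scn2a had r = 0.951 with Cacna1e over the 13 libraries centred within age, a value that contains the genotype difference.

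Immediate early genes, which calcium entry through these channels helps to induce, are given because they differed between libraries. At 15 months 7 of 13 rose in mutants, beside 1.99% of all genes called higher, among them Npas4 (log2 difference 1.29, SE 0.18, adjusted p = 0.0256), Junb (0.95, SE 0.14, adjusted p = 0.0268), Egr4 (0.76, SE 0.12, adjusted p = 0.0268) and Fos (1.60, SE 0.36, adjusted p = 0.0405). After correction 1 of 13, Npas4, passed (1.17, adjusted p = 0.0384), beside 0.242% of all genes. At 5 months Npas4 fell (-0.72, SE 0.14, adjusted p = 0.0359), as 1 of 13 beside 1.15% of all genes called lower, and 12 of 13 had negative differences, of which 6 passed after correction, beside 2.35% of all genes. Their summed counts were 15183 to 15313 in 15-month wild types and 19829 to 37872 in mutants. Over the 13 libraries centred within age Fos and Junb ran against Cacna1e (r = -0.76 and -0.79). These r contain the genotype difference, and the part of Fos and Junb in that of Cacna1e was not tested.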

How the data were processed

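The authors deposited normalized counts per gene (a signal, not read counts), made with Salmon 0.11.1 on mm10, then DESeq2, as 1 table per age. Columns were matched to mice by the description in the labels. Of low values, 72.5% to 88.6% were whole multiples of the best step (within 0.1 steps), so reads were not recovered and depth is unknown. Genes with a mean of at least 10 were tested on log2(value + 1) with limma 3.58.1 (R 4.3.3, lmFit, eBayes with a trend, two-sided) within each age, and in 1 fit of 13 libraries for the difference between ages, with Benjamini-Hochberg adjustment over all genes and a threshold of 0.05. Fold changes of low genes are understated on this scale. Replicates were separate mice.

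GC content and length are those of the longest GENCODE transcript on GRCm38, matched by symbol for 24399 of 25025 genes, and were used in a loess correction of each library (span 0.3). The fits were tested on simulated data. Members, gene lists and tests were chosen with earlier results of these data known. Named are the 8 members, up to 4 called genes per list and age by smallest p, the 5 genes most correlated with Cacna1e, and Tmem184b. Atp2a2, as the remaining called gene of its list, and Itpr2, Malat1, Neat1, Meg3, Ttr, Xist and the genes called after correction were named after their values were seen. Alternatives were pseudocounts of 0.1 and 10, no filter or a mean of at least 100, trimmed mean and quantile scaling, a linear correction, robust hyperparameters, 1 fit of all libraries, a replicate block and each mouse left out. Python 3.11.15, pandas and matplotlib handled tables and plots.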

Additional observations from a re-analysis of the deposited data

Results flagged for a closer look

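Among the calcium channel pathway genes, 4 of 66 had a genotype effect that differed between ages (limma interaction over 13 libraries, beside 1.75% of 15340 genes). Kcnma1, the BK channel, had an effect of 0.50 at 5 months and -0.89 at 15 months, a difference of -1.38, SE 0.27 (adjusted p = 0.0271), which stayed past the threshold after the GC and length correction (-1.02, adjusted p = 0.0302). Akap5 differed by -0.83, SE 0.18 (adjusted p = 0.0412), Itpr2, an inositol trisphosphate receptor, by -0.73, SE 0.17 (adjusted p = 0.0446), and Atp2a2 by -0.39, SE 0.09 (adjusted p = 0.0468). With each library left out in turn the count of 4 ranged from 0 to 19, being 19 without mutant 1 at 5 months and 0 without 7 of the 13 libraries. After correction these 3 were -0.54, -0.45 and -0.19, with adjusted p = 0.106, adjusted p = 0.114 and adjusted p = 0.198. The alpha-1 genes were examined for a library far from the others in 8 cases, 1 for each gene in the 4 wild types at 5 months, and 0 were found.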

How the results depend on the processing

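The 0 members called at 5 months became 2 with the loess correction and 1 with the linear one, and 0 to 1 with each mouse left out, and stayed at 0 under the other settings. The setting added after seeing the data, wild type 2 alone, could call no member and is given for its values only. The 1 member called at 15 months became 2 with a mean of at least 100, quantile scaling, robust hyperparameters and the replicate block, 0 with the loess correction, the linear correction, 1 fit of all libraries and the replicate block with the loess correction, and 0 to 3 with each mouse left out. For the pathway genes at 5 months the count of 0 became 1 with a pseudocount of 0.1, a mean of at least 100 or robust hyperparameters, 3 with the loess correction (0 with the block added) or 1 fit of all libraries, 2 with the linear correction, and 0 to 7 with each mouse left out. At 15 months the 11 became 0 with either correction and with the replicate block with correction, 2 with 1 fit of all libraries, 18 with the replicate block, and 0 to 18 with each mouse left out. The 4 genes with a difference between ages became 1 with either correction and 0 to 19 with each mouse left out, alternatives added after seeing the data. The sign at 5 months turned for Cacna1a (0.0056 with the replicate block, and -0.070 to 0.036 with a mouse left out), Cacna1c (0.011 with the replicate block, 0.013 with wild type 2 alone, -0.062 to 0.020 left out), Cacna1g (-0.19 to 0.036 left out), Cacna1h (-0.063 with quantile scaling, -0.058 with the linear correction, -0.092 with loess, -0.053 with the block and loess, -0.026 to 0.10 left out) and Cacna1i (-0.060 with the block and loess), all near 0. At 15 months the linear correction moved Cacna1b, Cacna1c and Cacna1d to -0.17, -0.055 and -0.078. The causes were not tested. Deviations of same-numbered mice of the 2 genotypes from their group means had correlations from -0.091 to 0.16. These come from groups of 3 or 4 mice and cannot decide whether the numbers pair them. At 15 months mutants 2 and 3 were most like the wild type of their number, and mutant 1 was not. At 5 months each mutant was most like a wild type of another number. With 3 or 4 mice a group, and sex unequal at 15 months, small differences were not detectable here.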
